A study of Mus musculus with 15 samples.

Results

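Forebrain RNA of wild-type mice from the group named PLX3X_CD30 was compared with forebrain RNA from the group named PLX1X, with 3 libraries in each. The 6 libraries were chosen by the library names in their descriptions, out of 15 libraries in 5 groups. The title of the series names macrophages that derive from monocytes and settle in the brain. The PLX3X_CD30 libraries carry PLX3X and CD30 only in their library names, while their titles and treatment labels say PLX alone. The PLX1X libraries carry that name as their treatment, and 3 NT libraries, labelled as not treated, gave the untreated level. The labels give neither the strain, age nor sex of the mice, do not name the compound, and do not spell out CD30, so the groups differ in at least the 2 parts of their names, PLX3X against PLX1X and CD30 against none. The other groups, PLX3X_CD0 and IR_BMT, entered the fit, where they helped to set the scaling, the genes tested and the spread of each gene, and are not compared. Nothing in the labels says whether each library is a separate animal, so a p-value here reflects the scatter among libraries, which may be technical.

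Compounds with PLX code names include inhibitors of the colony-stimulating factor 1 receptor, a kinase encoded by Csf1r that microglia and most other tissue macrophages need in order to survive. Microglia are the macrophages of the brain parenchyma, and border-associated macrophages line its vessels and meninges. When microglia have been depleted and the inhibitor is withdrawn, the remaining microglia can multiply and fill the tissue again, and under some conditions cells from the bone marrow enter it and become macrophages. In RNA of whole tissue, fewer cells of a type and less RNA per cell cannot be told apart.

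Total counts ran from 38094395 to 53981576 over the 6 libraries and from 19249641 to 54801136 over all 15. Levels are counts scaled to a common total with TMM factors (CPM), and folds are log2 fold changes of PLX3X_CD30 over PLX1X with their standard error. A gene was called when its adjusted p in edgeR's quasi-likelihood test was under 0.05. Where a paragraph goes on to further genes, parentheses hold the log2 fold change with its standard error and then that adjusted p, and where libraries are left out they hold the adjusted p without them. Markers of neural tissue were high in the 6 libraries, though they do not tell forebrain from other neural tissue. Snap25, a synaptic vesicle fusion protein of neurons, stood at 3247, 3233 and 3408 CPM in PLX3X_CD30 and 2814, 2993 and 3178 CPM in PLX1X. Mbp, the myelin basic protein, stood at 3338, 3460 and 3504 CPM in PLX3X_CD30 and 3382, 3307 and 3506 CPM in PLX1X. Neither was called.

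Many macrophage genes were several times higher in PLX3X_CD30 forebrains than in PLX1X forebrains, and no gene was called lower by as much as 2-fold. Of 21780 genes tested, 263 (1.21%) were called, with 235 (1.08%) higher and 28 (0.129%) lower in PLX3X_CD30. The counts of called list members below stand beside this 1.21%. All 134 called genes that differed by at least 2-fold (0.615% of those tested) were higher, and none was lower by that much. Of the 235 higher genes, 208 were protein-coding. Of 196 tested genes on a pool of lists that bear on myeloid cells, 54 (27.6%) were called higher and 0 lower. The pool takes in the MHC class I, interferon response, transforming growth factor beta and chemokine lists. It leaves out the immune checkpoint and integrin lists, and not all its members are particular to myeloid cells. The median log2 fold change over the 196 was 0.48. Among called genes with an average log2 CPM of 0 or more, predicted genes left out, the largest differences were for F13a1 and Mrc1. Called genes with fewer counts, such as Ms4a7, Clec4n and Ccl12, had larger fitted values. The smallest adjusted p-values were for Fcgr3 and Trem2. The median log2 fold change over all genes was 0.007, and 11220 of the 21780 had a positive one. An unadjusted p under 0.05 was reached by 12.8% of genes. DESeq2 called 2.62% (1.80% higher, 0.819% lower) and limma voom with a weight per group 3.25% (2.37% higher, 0.872% lower), and with an offset for length and GC content edgeR called 188 genes higher and 152 lower. The number called fell with any of the 6 libraries left out. Each such fit also has fewer libraries in a group, and the part of that was not tested. Without PLX1X replicate 1, PLX3X_CD30 replicate 1, 2 or 3 in turn, 125, 127, 172 and 126 genes were called, with 119, 122, 158 and 124 higher, and without PLX1X replicate 3 there were 187, with 156 higher. Without PLX1X replicate 2 there were 188, with 178 higher. Of the 235 higher genes 91 passed with each of the 6 libraries left out, and of the 28 lower genes 0 did. In all 235 higher genes the 3 PLX3X_CD30 libraries lay above the 3 PLX1X libraries, and in all 28 lower genes they lay below. That the groups were apart in a called gene, as given below, therefore adds nothing to its call. Over all genes tested, they lay above in 12.1% and below in 11.3%.

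**Figure D1:**
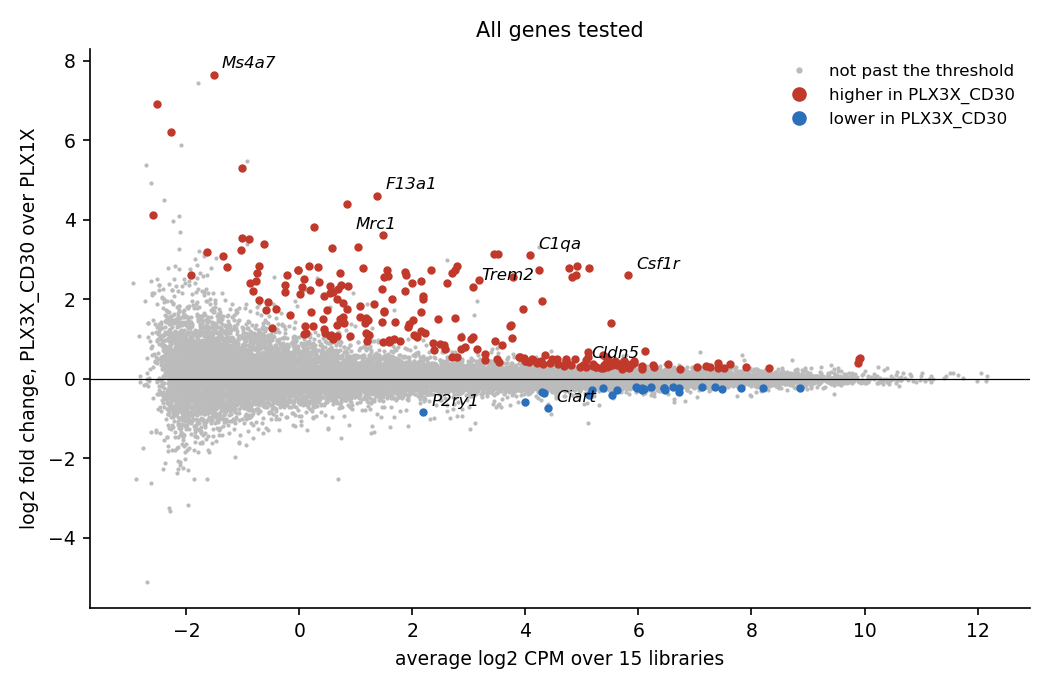
Each point is 1 of the 21780 genes tested, with its average level over the 15 libraries as log2 CPM on the horizontal axis and its log2 fold change of PLX3X_CD30 over PLX1X on the vertical axis; red points were called higher and blue points lower. The 235 higher genes reach far from zero, while the 28 lower genes all lie within 1 log2 unit of it; the fitted value of Ms4a7 and of other genes with no count in PLX1X depends on the prior count of the fit.

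Csf1r, the receptor itself, rose. It stood at 55.7, 53.8 and 55.7 CPM in PLX3X_CD30 against 8.91, 13.6 and 4.53 CPM in PLX1X, and at 146, 170.3 and 179.6 CPM in NT. The 3 PLX3X_CD30 libraries lay close together and all above PLX1X, whose highest library was 3 times its lowest, and all treated libraries lay below NT. The log2 fold change was 2.60 ± 0.38, or 6.08-fold (edgeR adjusted p = 0.00821). The call was lost, with the fold unchanged, when the 6 libraries were fitted alone (adjusted p = 0.0510) and without PLX1X replicate 1 (0.0571). In PLX3X_CD30 the receptor was at 33.3% of its NT mean, and in PLX1X at 5.45%. Neither ligand of the receptor was called. Csf1, made by several brain cell types, stood at 21.2, 23.1 and 26.4 CPM in PLX3X_CD30 and 26.7, 23.1 and 28.4 CPM in PLX1X (log2 fold change -0.15 ± 0.09, edgeR adjusted p = 0.554). Il34, the ligand made mainly by neurons, stood at 67.6, 64.5 and 63.3 CPM in PLX3X_CD30 and 68.6, 63.3 and 72.9 CPM in PLX1X (log2 fold change -0.07 ± 0.08, edgeR adjusted p = 0.792). The ranges of both ligands overlapped between the groups.

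Genes that among brain cells are largely restricted to microglia rose in 9 of 13 cases, with a median log2 fold change of 1.69. P2ry12, the ADP receptor by which microglia sense injury, stood at 13.3, 11.8 and 10.5 CPM in PLX3X_CD30 and 1.74, 2.84 and 1.48 CPM in PLX1X (log2 fold change 2.55 ± 0.22, edgeR adjusted p = 2.68e-05). Siglech, a sialic acid-binding lectin, stood at 6.65, 8.27 and 7.01 CPM in PLX3X_CD30 and 1.06, 1.46 and 0.542 CPM in PLX1X (2.83 ± 0.26, 1.54e-05). In both genes the groups were far apart and NT lay above them.

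Fcrls, an Fc receptor-like surface protein, had the largest rise of the microglia-restricted genes (log2 fold change 3.15 ± 0.29, edgeR adjusted p = 6.07e-05). It was followed by Gpr34, a lysophosphatidylserine receptor (2.68 ± 0.32, 2.01e-04), Tmem119 (1.96 ± 0.24, 0.00129), the fructose transporter Slc2a5 (1.69 ± 0.22, 3.62e-04) and the secreted matrix protein Olfml3 (1.35 ± 0.19, 0.00158). Crybb1 was at 15.5% of NT in PLX3X_CD30, the lowest of the 13 genes there, and at 5.80% in PLX1X, where Fcrls was lowest at 3.63%. The libraries of Crybb1 stood at 1.25, 0.600 and 1.16 CPM in PLX3X_CD30 and 0.444, 0.310 and 0.369 CPM in PLX1X, and its call (1.40 ± 0.29, adjusted p = 0.0160) was lost without PLX1X replicate 2 or 3 or PLX3X_CD30 replicate 1 or 3 (adjusted p 0.0855, 0.0612, 0.118 and 0.0979).

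The 4 microglia-restricted genes that were not called were P2ry13, Sparc, Sall1 and Sall3. P2ry13, another ADP receptor, stood at 6.11, 6.92 and 5.80 CPM in PLX3X_CD30 and 0.259, 2.00 and 0.123 CPM in PLX1X. Its groups were apart, but PLX1X replicate 2 was many times above the other two (log2 fold change 2.99 ± 0.71, edgeR adjusted p = 0.0890); without it the log2 fold change was 4.95 (0.00128), and DESeq2 called the gene with all libraries (0.0190). Sparc (-0.10 ± 0.22, 0.913), Sall1 (0.22 ± 0.43, 0.887) and Sall3 (0.13 ± 0.55, 0.956) lay near zero, and Sparc is also made by astrocytes and vascular cells. As a median over the 13 genes, PLX3X_CD30 stood at 38.9% of NT and PLX1X at 11.1%.

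Genes shared by microglia and other macrophages rose in 19 of 21 cases, with a median log2 fold change of 2.58. Their summed level was 378, 373 and 389.6 CPM in PLX3X_CD30 and 107, 135 and 84.7 CPM in PLX1X, against 676, 820.3 and 836 CPM in NT. Within PLX1X, replicate 2 was highest and replicate 3 lowest, a spread of 25.4 CPM (SD, n = 3) against 8.43 CPM in PLX3X_CD30. The median over these genes was 48.7% of NT in PLX3X_CD30 and 7.93% in PLX1X. Without PLX1X replicate 1 only 12 of the 21 passed, and without replicate 2 of PLX1X 20 did, with medians of 2.52 and 3.01.

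Among them, Fcgr3, a low-affinity receptor for IgG, stood at 9.99, 10.6 and 10.2 CPM in PLX3X_CD30 and 1.94, 2.15 and 1.35 CPM in PLX1X (log2 fold change 2.49 ± 0.17, edgeR adjusted p = 1.28e-07). Trem2, a lipid-sensing receptor of microglia, stood at 9.24, 9.14 and 8.63 CPM in PLX3X_CD30 and 1.96, 1.97 and 1.43 CPM in PLX1X (2.32 ± 0.16, 1.28e-07). Itgam, the CD11b chain of complement receptor 3, stood at 2.64, 2.19 and 1.59 CPM in PLX3X_CD30 and 0.259, 0.288 and 0.0739 CPM in PLX1X (3.32 ± 0.34, 2.45e-05). These 3 calls held in every alternative run. Cx3cr1, the fractalkine receptor, stood at 28.0, 25.4 and 25.9 CPM in PLX3X_CD30 and 3.41, 7.38 and 2.54 CPM in PLX1X (2.57 ± 0.34, 0.00464). Aif1, which encodes the marker protein Iba1, stood at 3.73, 4.07 and 3.83 CPM in PLX3X_CD30 and 0.944, 1.66 and 0.271 CPM in PLX1X (2.00 ± 0.34, 0.00573). Neither group overlapped the other, but both calls were lost when the 6 libraries were fitted alone (adjusted p 0.0598 and 0.0827), and without PLX1X replicate 2 the log2 fold change of Aif1 was 2.61.

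Members without a call were Mertk, a receptor for the uptake of apoptotic cells that astrocytes also express, and Ly86, a partner of a toll-like receptor homologue. Mertk stood at 52.3, 57.3 and 52.0 CPM in PLX3X_CD30 and 51.1, 51.0 and 52.4 CPM in PLX1X (log2 fold change 0.07 ± 0.07, edgeR adjusted p = 0.765). Ly86 stood at 4.07, 4.23 and 3.80 CPM in PLX3X_CD30 and 1.13, 2.13 and 0.345 CPM in PLX1X (1.74 ± 0.41, 0.0609), with the groups apart. It was called without PLX1X replicate 2, where its log2 fold change was 2.40 (adjusted p = 0.00347), and by DESeq2 (7.15e-04). Ptprc, the CD45 phosphatase of all leukocytes, was called (1.74 ± 0.38, 0.0291) but lost its call without PLX1X replicate 1 or 3 or PLX3X_CD30 replicate 1 or 3 (adjusted p 0.168, 0.0993, 0.131 and 0.140), and reached 2.40 without PLX1X replicate 2.

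**Figure D2:**
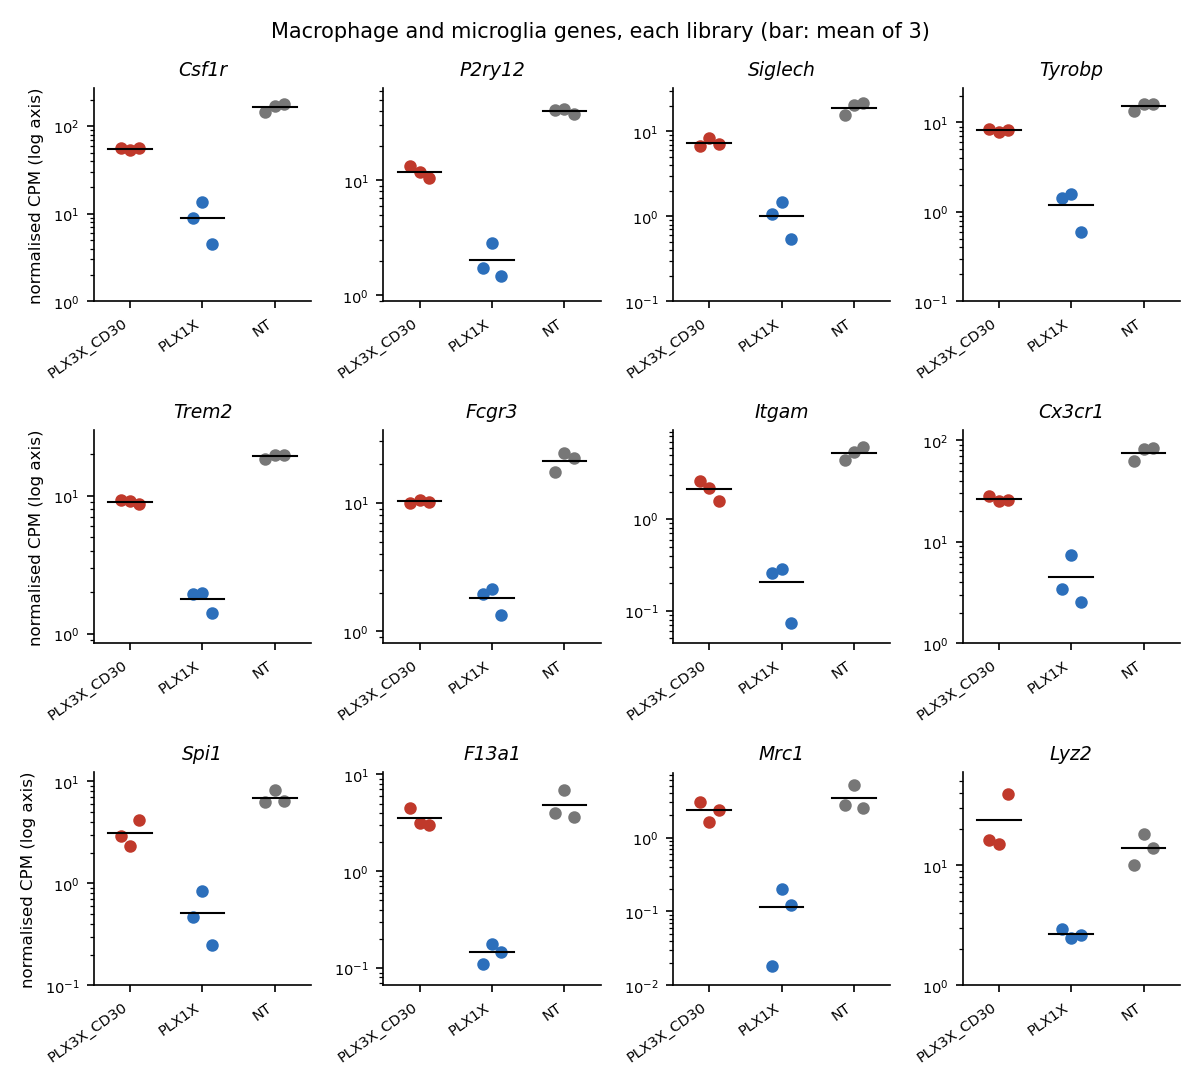
Each panel shows 1 gene with its normalised CPM in every library on a log axis, PLX3X_CD30 in red, PLX1X in blue and NT in grey; horizontal bars are means of 3. In all 12 genes the 3 PLX3X_CD30 libraries lie above the 3 PLX1X libraries, and in all but F13a1, Mrc1 and Lyz2 they lie below the 3 NT libraries.

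The sequence at the start of these genes is shown because they moved together. The windows are RefSeq promoters of build GRCm38.p6, 250 bases before to 50 after the start, printed in the direction of the gene. Capitals mark GAGGAA, the core of sites bound by PU.1, the ETS family factor that Spi1 encodes, or its reverse complement TTCCTC. The windows belong to the genes with the smallest adjusted p among the called microglia-restricted and shared genes that had a window, at chr17:48346151-48346450 (plus strand) for Trem2, chr1:171059354-171059653 (minus) for Fcgr3, chr7:55767934-55768233 (plus) for Siglech, chr7:128062390-128062689 (plus) for Itgam and chr3:59262936-59263235 (minus) for P2ry12.
Trem2: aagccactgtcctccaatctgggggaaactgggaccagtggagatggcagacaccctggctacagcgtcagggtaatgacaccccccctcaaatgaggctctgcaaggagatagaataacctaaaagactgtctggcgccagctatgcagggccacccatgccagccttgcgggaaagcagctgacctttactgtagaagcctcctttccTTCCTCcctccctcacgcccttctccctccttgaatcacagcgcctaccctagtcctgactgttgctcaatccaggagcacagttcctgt
Fcgr3: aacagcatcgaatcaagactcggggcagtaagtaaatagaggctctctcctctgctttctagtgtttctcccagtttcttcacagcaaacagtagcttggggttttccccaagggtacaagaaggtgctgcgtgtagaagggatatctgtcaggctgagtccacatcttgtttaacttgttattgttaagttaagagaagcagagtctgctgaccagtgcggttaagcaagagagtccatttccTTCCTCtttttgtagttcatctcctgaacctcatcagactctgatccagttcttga
Siglech: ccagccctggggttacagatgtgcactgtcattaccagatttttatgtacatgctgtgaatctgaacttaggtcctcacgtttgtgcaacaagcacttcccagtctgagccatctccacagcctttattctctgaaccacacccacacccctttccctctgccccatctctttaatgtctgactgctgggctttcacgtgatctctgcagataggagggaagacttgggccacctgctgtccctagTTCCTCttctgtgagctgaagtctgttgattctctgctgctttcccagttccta
Itgam: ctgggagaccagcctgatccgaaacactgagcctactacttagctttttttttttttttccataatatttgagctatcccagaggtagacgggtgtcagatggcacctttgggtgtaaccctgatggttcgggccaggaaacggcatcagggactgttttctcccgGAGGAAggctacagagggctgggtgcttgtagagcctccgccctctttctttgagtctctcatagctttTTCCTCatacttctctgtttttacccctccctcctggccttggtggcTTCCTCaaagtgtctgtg
P2ry12: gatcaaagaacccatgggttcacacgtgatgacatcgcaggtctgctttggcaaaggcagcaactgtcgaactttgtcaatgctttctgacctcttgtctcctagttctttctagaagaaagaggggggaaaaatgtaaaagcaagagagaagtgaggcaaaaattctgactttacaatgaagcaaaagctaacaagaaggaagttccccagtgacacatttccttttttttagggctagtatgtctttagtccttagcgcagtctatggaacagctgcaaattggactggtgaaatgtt

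The match began 40 bases before the start in Trem2, 6 before it in Fcgr3 and 4 before it in Siglech, each time on the strand opposite to the gene. Itgam held 3 matches, 1 of them on its own strand 84 bases before the start, and P2ry12 held none. Among 13408 tested genes with a window, 26.8% held GAGGAA on either strand, and among all 27025 RefSeq windows the share was 28.3%. Among called higher genes 77 of 171 windows (45.0%) held it, among those higher by at least 2-fold 54 of 91 (59.3%), and among called lower genes 4 of 20 (20.0%). The longer AGAGGAA, which contains GAGGAA, was in 36.3% of the windows of genes higher by at least 2-fold and 9.5% of those of all tested genes. GAAA followed after any 2 bases by GAAA, the letters of an interferon response element, was in 4.4% and 2.9% of the same windows. A match in such a window is a description of its letters and was not tested.

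Fc receptors and the adaptors that signal through ITAM motifs rose in 5 of 9 tested cases (median log2 fold change 2.32), and in 3 without PLX1X replicate 1 or PLX3X_CD30 replicate 1 or 3. DESeq2 and voom each called 8. Beside Fcgr3 and Trem2, the adaptor Tyrobp, with which Trem2 signals, stood at 8.53, 7.75 and 8.14 CPM in PLX3X_CD30 and 1.43, 1.57 and 0.591 CPM in PLX1X (2.74 ± 0.34, edgeR adjusted p = 8.70e-04). The high-affinity IgG receptor Fcgr1 (2.85 ± 0.57, 0.0160) and the shared Fc receptor gamma chain Fcer1g (2.74 ± 0.54, 0.0366) were called by a small margin. Fcgr1 lost its call without PLX1X replicate 1 or PLX3X_CD30 replicate 1 or 3 (adjusted p 0.0972, 0.0777 and 0.0562) and reached 3.51 without PLX1X replicate 2. Fcer1g kept its call only without PLX1X replicate 2 (log2 fold change 3.37, adjusted p = 0.0249), and with any other library of the 6 left out its adjusted p was 0.0618 to 0.174. The kinase Syk, which acts below these receptors, stood at 1.98, 2.35 and 2.70 CPM in PLX3X_CD30 and 1.39, 1.31 and 0.616 CPM in PLX1X, apart but not called (1.07 ± 0.27, 0.0588). DESeq2 called it (0.0116).

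Complement genes rose in 7 of 12 cases (median log2 fold change 2.24), and in 4 without PLX1X replicate 1. The 3 chains of C1q, the recognition protein that in brain comes mostly from microglia, lie side by side on chromosome 4, between 136880129 and 136898803 in GENCODE mouse release 21 (mm10). C1qa stood at 20.8, 18.6 and 22.6 CPM in PLX3X_CD30 and 2.22, 3.99 and 0.911 CPM in PLX1X (3.11 ± 0.49, edgeR adjusted p = 0.0138). C1qb had a log2 fold change of 2.80 ± 0.43 (0.0115) and C1qc of 2.79 ± 0.48 (0.0212). All 3 were apart between the groups, but without PLX1X replicate 1 none passed (adjusted p 0.0905, 0.0748 and 0.120), and C1qa and C1qc were also lost without PLX3X_CD30 replicate 1 (0.0516 and 0.0777) or 3 (0.0555 and 0.0811), and C1qc without replicate 2 (0.0575). When the 6 libraries were fitted alone, C1qa and C1qc did not pass (0.0521 and 0.0816). The receptors held their calls. C3ar1, the C3a receptor (2.18 ± 0.33, 0.00129), C5ar1, the C5a receptor (2.30 ± 0.34, 9.12e-04), and Itgb2, the beta 2 integrin that pairs with Itgam (2.41 ± 0.28, 9.08e-05), were called in every alternative.

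Purinergic receptors and ectoenzymes of microglia rose in 3 of 8 cases (median log2 fold change 1.89), and in 5 without PLX1X replicate 2, by DESeq2 and by voom. The 3 were P2ry12, Gpr34 and P2ry6, a UDP receptor that triggers phagocytosis (2.36 ± 0.34, edgeR adjusted p = 6.86e-04). Immune checkpoint genes and don't-eat-me signals, a list of surface receptors with the ligands Cd200 and Cd47, rose in 6 of 11 cases (median 1.43, and 1.94 with voom). The ligands were not called (Cd200 -0.23, Cd47 -0.07). Cd33, a sialic acid-binding receptor, stood at 3.42, 3.18 and 3.47 CPM in PLX3X_CD30 and 0.204, 0.466 and 0.148 CPM in PLX1X (3.61 ± 0.36, 2.45e-05). Havcr2, which encodes the checkpoint protein Tim-3, stood at 2.01, 1.49 and 2.31 CPM in PLX3X_CD30 and 0.111, 0.333 and 0.148 CPM in PLX1X (3.29 ± 0.40, 1.20e-04). Both were apart with wide gaps, and without PLX1X replicate 2 they reached 4.20 and 3.89. Vsir, the checkpoint protein VISTA (1.33 ± 0.17, 3.92e-04), and Cd300a (2.18 ± 0.35, 0.00224) were called too, as was the collagen receptor Lair1 (0.88 ± 0.16, 0.00573), which lost its call without PLX1X replicate 1 (0.0571).

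Transcription factors of the myeloid lineage rose in 4 of 13 cases, and all 13 had a positive log2 fold change (median 0.68). With voom, and when the 6 libraries were fitted alone, 7 were called. Spi1, which encodes PU.1, the factor that sets macrophage identity, stood at 2.90, 2.32 and 4.16 CPM in PLX3X_CD30 and 0.463, 0.842 and 0.246 CPM in PLX1X (2.58 ± 0.42, edgeR adjusted p = 0.00508). Irf8, a partner of PU.1 in microglia, stood at 5.53, 5.14 and 4.80 CPM in PLX3X_CD30 and 1.35, 2.66 and 1.48 CPM in PLX1X (1.50 ± 0.20, 3.92e-04). Irf5 rose by 1.67 ± 0.23 (5.29e-04). The groups were apart in all 3. Runx1 (1.02 ± 0.44, 0.337) and Ikzf1 (0.85 ± 0.25, 0.121) were not called.

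Genes of border-associated macrophages rose in 6 of 12 tested cases, with a median log2 fold change of 2.11, or 1.81 with the genes without a count in PLX1X set at their lower bound, and 3.28 without PLX1X replicate 1. With a filter of CPM 1 in 3 libraries 3 were called. As a median these genes stood at 70.9% of NT in PLX3X_CD30 and 15.7% in PLX1X, and whether that differs from the microglia-restricted genes was not tested. F13a1, coagulation factor XIII A, stood at 4.54, 3.18 and 3.03 CPM in PLX3X_CD30 and 0.111, 0.177 and 0.148 CPM in PLX1X, and at 3.96, 6.98 and 3.63 CPM in NT. It rose by 4.61 ± 0.33, or 24.5-fold (edgeR adjusted p = 2.10e-07), and PLX3X_CD30 overlapped NT. Mrc1, the mannose receptor CD206, stood at 3.08, 1.62 and 2.39 CPM in PLX3X_CD30 and 0.0185, 0.200 and 0.123 CPM in PLX1X, and at 2.76, 5.10 and 2.56 CPM in NT. It rose by 4.40 ± 0.46, or 21.2-fold (3.25e-05), with PLX3X_CD30 again overlapping NT, and by 5.13 without PLX1X replicate 2.

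Stab1, a scavenger receptor, rose by 2.41 ± 0.25 (edgeR adjusted p = 5.78e-05) and reached 58.4% of NT in PLX3X_CD30 against 11.0% in PLX1X. Clec4n, a lectin for fungal sugars, and Ms4a7 had no count in any PLX1X library. Ms4a7 stood at 0.496, 0.209 and 1.08 CPM in PLX3X_CD30 and 0.763, 0.495 and 0.461 CPM in NT, at least 9.10-fold higher in PLX3X_CD30 than a floor of 3 counts per library allows in PLX1X, and at least 5.39-fold without PLX3X_CD30 replicate 3. Clec4n stood at 0.287, 0.157 and 0.205 CPM in PLX3X_CD30, at least 3.31-fold higher. The chemokine Pf4, with 6 counts in all of PLX1X, was called (3.08 ± 0.66, 0.0212), but each library of the 6 except PLX1X replicate 1 ended that call when left out (adjusted p 0.0524 to 0.102), and without PLX1X replicate 1 its log2 fold change was 3.87. Clec4n lost its call (adjusted p = 0.0160) without PLX1X replicate 1 or 2 or PLX3X_CD30 replicate 1 or 3 (0.0821, 0.0524, 0.0741 and 0.0507). That a member passes in a list where PLX1X holds so few counts rests on the level in PLX3X_CD30.

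Genes that mark macrophages derived from bone marrow after they engraft in brain rose in 3 of 15 tested cases (median log2 fold change 1.42, and 1.00 without PLX3X_CD30 replicate 3). DESeq2 called 6, voom 5 and edgeR without a filter on low counts 8, and the median was 0.82 when the 6 libraries were fitted alone and 0.83 with a filter of CPM 1 in 3 libraries. The 3 were Ms4a7, which border-associated macrophages also express, Lyz2 and the prostaglandin-degrading enzyme Hpgd. Lyz2, a lysozyme of myeloid cells, stood at 16.4, 15.1 and 39.6 CPM in PLX3X_CD30 and 2.93, 2.48 and 2.61 CPM in PLX1X, and at 10.0, 18.1 and 14.0 CPM in NT. The groups were apart by a wide gap, and PLX3X_CD30 replicate 3 was far above the other libraries of its group. The log2 fold change was 3.14 ± 0.37 (edgeR adjusted p = 0.00146), 2.55 without that library (1.26e-06), and not called when the 6 libraries were fitted alone (0.0703). Lyz1, whose near-identical sequence can share reads with Lyz2, moved alike (3.54 ± 0.45, 2.23e-04). Hpgd stood at 3.47, 3.63 and 3.57 CPM in PLX3X_CD30 and 1.19, 1.49 and 1.33 CPM in PLX1X (1.42 ± 0.25, 0.00496). Apoe, which engrafted cells and astrocytes make, overlapped between the groups (0.15 ± 0.08, 0.454).

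Monocyte genes gave no call among the 6 tested of 12 listed (median log2 fold change 0.01), with 0 at an unadjusted p under 0.05 and 0 by DESeq2 or limma voom. Vcan, 1 of the 6, is also on the list of oligodendrocyte precursors, so this median need not describe monocytes. Ccr2, the chemokine receptor of classical monocytes, stood at 0.0522, 0.261 and 0.283 CPM in PLX3X_CD30 and 0.0370, 0.111 and 0.0492 CPM in PLX1X, with overlapping ranges (1.57 ± 1.02, edgeR adjusted p = 0.569). Lymphocyte, neutrophil and erythrocyte genes together gave 0 calls among 20, with 1 at an unadjusted p under 0.05 and 0 by DESeq2 or voom.

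PLX3X_CD30 replicate 3 stood highest of its group in several antigen presentation genes as well as in Lyz2, Ms4a7 and Spi1. Cd74, the invariant chain of MHC class II, stood at 10.5, 7.41 and 23.8 CPM in PLX3X_CD30 and 4.02, 5.54 and 4.21 CPM in PLX1X. H2-Aa stood at 2.82, 1.36 and 4.01 CPM in PLX3X_CD30 and 0.685, 1.46 and 0.985 CPM in PLX1X. H2-Ab1 stood at 4.36, 3.03 and 6.78 CPM in PLX3X_CD30 and 1.26, 2.28 and 1.53 CPM in PLX1X. Cd74 and H2-Ab1 were apart between the groups and H2-Aa overlapped. MHC class II genes gave 0 calls among 7 (median log2 fold change 1.08), with 5 at an unadjusted p under 0.05, 1 by DESeq2 and 0 by voom. As a median the 7 stood at 118% of NT in PLX3X_CD30 and 55.7% in PLX1X. For Cd74 the log2 fold change was 1.60 ± 0.45 (edgeR adjusted p = 0.148), 0.96 without PLX3X_CD30 replicate 3, and DESeq2 called it (0.0227). Igkc, an immunoglobulin light chain of plasma cells, was also highest in that library, at 0.470, 0.783 and 3.01 CPM in PLX3X_CD30 against 0.259, 0.310 and 0.542 CPM in PLX1X (1.95 ± 0.86, 0.379, and 0.77 without that library). The part of this library's cell content in these values was not tested. Genes of MHC class I and its peptide loading gave 1 call among 11 (median 0.31), and 2 by DESeq2 and 3 by voom. The call was H2-T23, one of the near-identical H2 genes, at 22.9, 20.7 and 23.6 CPM in PLX3X_CD30 and 14.4, 15.7 and 14.0 CPM in PLX1X (0.61 ± 0.12, 0.0129). It was lost without PLX1X replicate 1 or 3 or PLX3X_CD30 replicate 1 or 3 (adjusted p 0.0649 to 0.0794).

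Genes of the interferon response gave 0 calls among 30 (median log2 fold change 0.14), with 2 at an unadjusted p under 0.05 and 0 by DESeq2 or voom. With 1.21% of all genes tested called, 0 calls in lists of this size lie near that share. Of the genes of disease-associated microglia and lipid handling 2 of 17 were called (median 0.12), Trem2 and the protease Ctsd, and 1 without PLX1X replicate 1 or PLX3X_CD30 replicate 1 or 3 or with the offset for length and GC content. Of cytokines and chemokines 2 of 8 were called, Tgfb1 and Ccl12, and 1 with any of the 6 libraries left out or a filter of CPM 1 in 3 libraries. Ccl12, a monocyte chemoattractant, stood at 0.417, 0.679 and 0.925 CPM in PLX3X_CD30 and 0, 0.0443 and 0 CPM in PLX1X, where 2 counts were found in all. Its call (edgeR adjusted p = 0.0378) was lost with any of the 6 libraries left out (adjusted p 0.0738 to 0.200). Genes of cell division gave 0 calls among 22 (median -0.14), with 0 at an unadjusted p under 0.05 and 0 by DESeq2 or voom. Mki67, which cycling cells express, stood at 1.10, 1.04 and 1.08 CPM in PLX3X_CD30 and 1.44, 2.42 and 1.28 CPM in PLX1X, all below (-0.67 ± 0.33, 0.410).

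Toll-like receptor genes were positive in 12 of 12 cases (median log2 fold change 1.25, and 0.73 without PLX3X_CD30 replicate 3), but 1 was called, against 4 without PLX1X replicate 2, 3 by DESeq2 and 4 by voom, and 2 or 3 in the other alternatives with all libraries except RLE factors. Tlr13, a sensor of bacterial ribosomal RNA, had a log2 fold change of 2.74 ± 0.63 (edgeR adjusted p = 0.0485), which was lost without any library of the 6 except PLX1X replicate 2 (adjusted p 0.106 to 0.227) and reached 3.64 without that one. Cd14, a co-receptor for bacterial lipopolysaccharide, stood at 1.75, 0.940 and 1.13 CPM in PLX3X_CD30 and 0.352, 0.621 and 0.0985 CPM in PLX1X, apart and just short of a call (1.81 ± 0.44, 0.0518). DESeq2 called it (0.00326), and without PLX1X replicate 2 it reached 2.41 (0.0166). Tlr2 stood likewise (1.68 ± 0.42, 0.0550, and 0.0107 by DESeq2).

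Lysosomal genes rose in 6 of 15 cases, with a median log2 fold change of 0.25. The macrophage cathepsin Ctss stood at 36.1, 43.5 and 44.7 CPM in PLX3X_CD30 and 6.26, 7.87 and 3.23 CPM in PLX1X (2.83 ± 0.36, edgeR adjusted p = 0.00315). The other called genes given here had smaller folds. Cd68, a lysosomal membrane protein, stood at 9.89, 8.30 and 9.71 CPM in PLX3X_CD30 and 5.28, 6.52 and 4.90 CPM in PLX1X (0.74 ± 0.15, 0.0155). Ctsd stood at 211, 206 and 214 CPM in PLX3X_CD30 and 158, 163 and 164 CPM in PLX1X (0.38 ± 0.08, 0.0144). Ctsh (0.62 ± 0.12, 0.0142) and Ctsz (0.45 ± 0.10, 0.0341) were called too. Each of these 4 had no overlap between the groups. Cd68 lost its call without PLX1X replicate 1 or 3 or PLX3X_CD30 replicate 1 or 3 (adjusted p 0.0842 to 0.102), Ctsd without PLX1X replicate 1 or 2 or PLX3X_CD30 replicate 1 or 3 (0.0538 to 0.0991), Ctsh without PLX1X replicate 2 or 3 or PLX3X_CD30 replicate 1 or 3 (0.0560 to 0.0731) and Ctsz without any of the 6 (0.0789 to 0.155). Ctsd and Ctsz were also lost with the offset for length and GC content (0.0701 and 0.0805), under which 4 genes passed and the median was 0.16. Between 2 and 5 of the 15 genes passed with a library left out, and 10 when the 6 libraries were fitted alone.

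On the transforming growth factor beta axis, which keeps microglia in their homeostatic state, 4 of 12 genes rose and the median was 0.07. The ligand Tgfb1 stood at 2.84, 2.45 and 3.29 CPM in PLX3X_CD30 and 0.889, 0.909 and 1.40 CPM in PLX1X (1.43 ± 0.23, edgeR adjusted p = 0.00176). Itgb5, an integrin beta chain, stood at 70.3, 67.0 and 73.7 CPM in PLX3X_CD30 and 45.7, 40.3 and 44.4 CPM in PLX1X (0.69 ± 0.09, 5.37e-04). The groups were apart in both, and both calls held in every alternative. The receptors Tgfbr1 (0.48 ± 0.10, 0.0147) and Tgfbr2 (0.42 ± 0.10, 0.0378) were called with all libraries, but Tgfbr1 was lost without PLX1X replicate 1 or 3 or PLX3X_CD30 replicate 1 or 2 (adjusted p 0.0584 to 0.102) and Tgfbr2 without any of the 6 (0.0739 to 0.193), so 2 or 3 of the 12 genes passed with a library left out.

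Of the higher genes, 61 stood on a list, and the rest included leukocyte genes, named here after their values were seen. Pld4, an exonuclease of endolysosomes, stood at 8.09, 7.80 and 8.76 CPM in PLX3X_CD30 and 1.39, 1.73 and 0.763 CPM in PLX1X (2.65 ± 0.24, edgeR adjusted p = 8.99e-06). Csf3r, the receptor for granulocyte colony-stimulating factor, stood at 2.58, 2.98 and 1.90 CPM in PLX3X_CD30 and 0.296, 0.488 and 0.295 CPM in PLX1X (2.78 ± 0.27, 1.42e-05). Mpeg1, the pore-forming perforin 2, stood at 4.51, 5.09 and 4.21 CPM in PLX3X_CD30 and 0.630, 1.17 and 0.443 CPM in PLX1X (2.61 ± 0.29, 6.68e-05). None of the 3 overlapped.

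Further called genes, also named after their values were seen, act in signalling or sensing. Inpp5d, the lipid phosphatase SHIP1, stood at 57.2% of NT in PLX3X_CD30 and 31.6% in PLX1X (log2 fold change 0.86 ± 0.12, edgeR adjusted p = 7.58e-04). Nckap1l, an actin regulator of leukocytes, stood at 46.9% and 22.9% of NT in the same groups (1.04 ± 0.13, 1.92e-04). The guanine nucleotide exchange factor Vav1 stood at 46.1% of NT in PLX3X_CD30 and 9.38% in PLX1X (2.27 ± 0.41, 0.0108), a call lost without PLX1X replicate 1 (0.0612). Sting1, the receptor for cyclic dinucleotides (1.52 ± 0.21, 6.30e-04), and Cd86, a co-stimulatory ligand (2.24 ± 0.32, 7.28e-04, and 2.83 without PLX1X replicate 2), rose too. Hcar2, a receptor for hydroxybutyrate and nicotinic acid, had no count in PLX1X and stood at 0.470, 0.261 and 0.334 CPM in PLX3X_CD30, at least 5.43-fold higher, against 0.238, 0.149 and 0.0369 CPM in NT. Its call (0.0108) was lost without PLX1X replicate 1 (0.0648) or PLX3X_CD30 replicate 1 (0.0564).

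**Figure D3:**
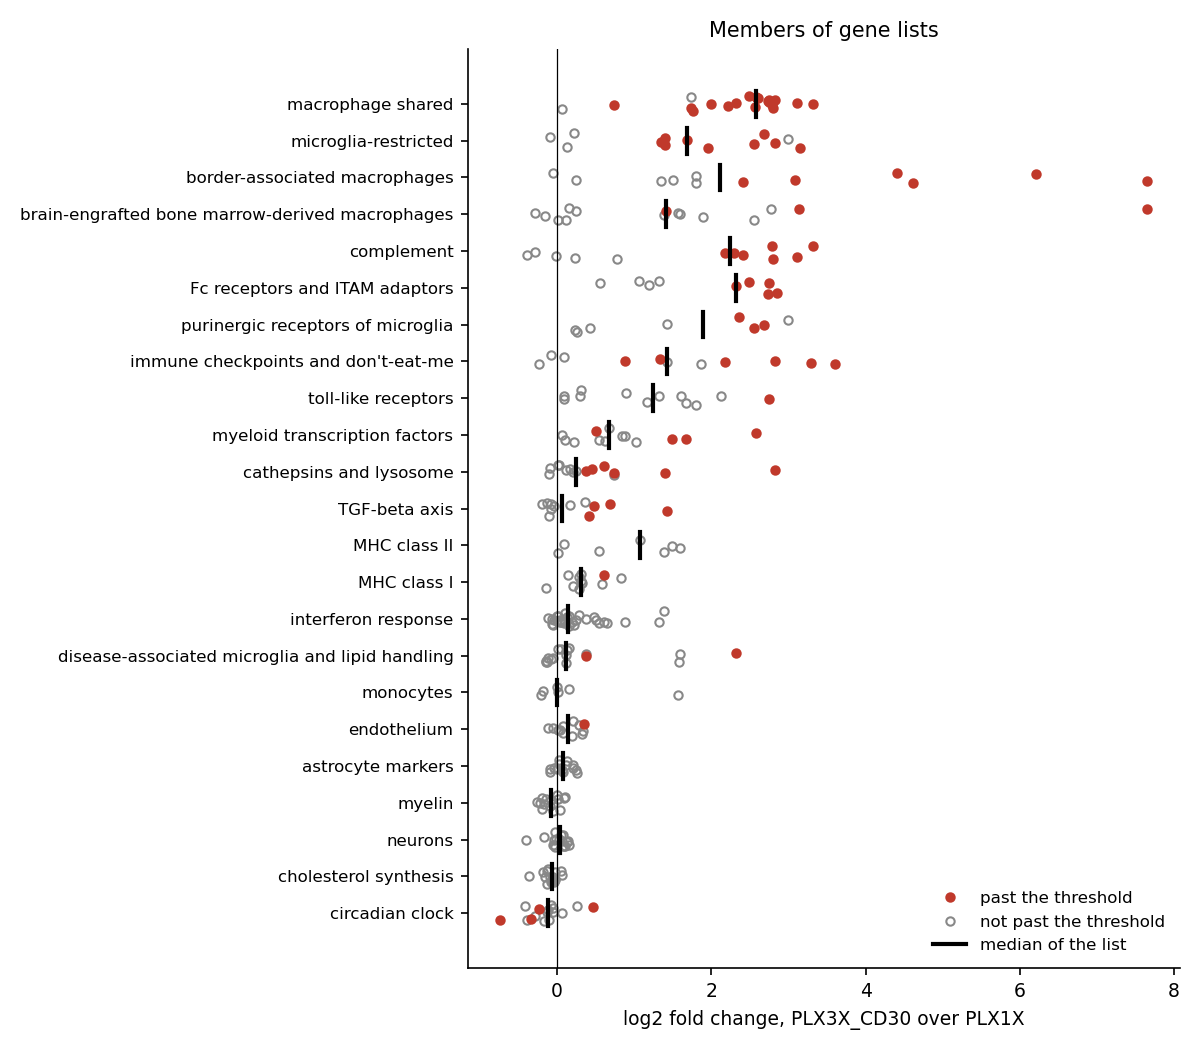
Each row is a list of genes and each point a member, placed by its log2 fold change of PLX3X_CD30 over PLX1X; filled points passed an edgeR adjusted p of 0.05, open points did not, and the black bar is the median of the list. Medians run from 2.58 for genes shared by macrophages through 1.69 for microglia-restricted genes to near zero for neurons, myelin and astrocytes, and the points beyond 6 are Ms4a7 and Clec4n, whose fitted values have no count behind them in PLX1X.

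Lists of neural and vascular cells gave few calls. Over all genes tested 1.21% were called, so 0 calls in lists of this size lie near that share. The neuronal lists together gave 0 calls among 91 genes (median log2 fold change -0.05), with 5 at an unadjusted p under 0.05, 0 by DESeq2 and 1 by voom. Astrocyte and oligodendrocyte lists gave 0 among 62 (median 0.01), with 11, 1 and 4 by the same measures. Gfap, the filament protein that reactive astrocytes raise, stood at 236, 252 and 269 CPM in PLX3X_CD30 and 336, 283 and 309 CPM in PLX1X, all below (-0.30 ± 0.22, edgeR adjusted p = 0.640), and was called when the 6 libraries were fitted alone (0.0213). Genes of cholesterol synthesis gave 0 among 19 (median -0.06), with 3 at an unadjusted p under 0.05 and 0 by DESeq2 or voom. Pericyte, meningeal, choroid plexus and ependymal genes gave 0 among 36, with 0 by each of the other 3 measures.

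Among endothelial genes 1 of 12 was called. Cldn5, the tight junction protein claudin 5, stood at 34.5, 32.7 and 33.0 CPM in PLX3X_CD30 and 24.4, 27.5 and 26.4 CPM in PLX1X (log2 fold change 0.36 ± 0.07, edgeR adjusted p = 0.0110), and lost its call without PLX1X replicate 1 (0.101) or PLX3X_CD30 replicate 1 (0.0775) and with an offset for length and GC content (0.118). Col4a1 and Col4a2, the main collagen chains of the vascular basement membrane, lie head to head on chromosome 8 and were named after their values were seen. Col4a1 spans 11198423 to 11312826 on the minus strand and Col4a2 11312805 to 11449287 on the plus strand (mm10), so their first bases overlap. Col4a1 stood at 39.3, 32.5 and 36.5 CPM in PLX3X_CD30 and 24.2, 23.7 and 26.5 CPM in PLX1X (0.54 ± 0.08, 0.00129). Col4a2 stood at 46.4, 38.1 and 43.3 CPM in PLX3X_CD30 and 27.7, 31.1 and 27.8 CPM in PLX1X (0.56 ± 0.07, 2.23e-04). Both chains were apart, were at 99.8% and 94.9% of NT in PLX3X_CD30 and at 68.6% and 64.3% in PLX1X, and held their calls in every alternative.

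Markers of brain regions varied between libraries. Lists that mark striatal, thalamic and hypothalamic neurons gave 0 calls among 26, with 1 at an unadjusted p under 0.05, 0 by DESeq2 and 1 by voom. All 10 striatal genes had negative log2 fold changes (median -0.20), and their summed level was 2579, 3068 and 1920 CPM in PLX3X_CD30 and 2849, 3032 and 3198 CPM in PLX1X. PLX3X_CD30 replicate 3, the library with the highest Lyz2, Ms4a7 and Cd74, was the lowest in striatal genes. The part of dissection in any result was not tested.

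Long non-coding RNA genes leaned higher as a class, though few were called. Of the 263 called genes 27 were not protein-coding, all of them higher, and none overlapped or lay within 10000 bases of a called protein-coding gene. Among 3420 tested long non-coding genes and genes of unconfirmed coding status, 2376 had a positive log2 fold change, against 11220 of all 21780 genes. Of the 3420 genes, 25 were called higher (0.731%, against 1.08% of all genes) and 0 lower. Their median log2 fold change was 0.212, against 0.007 over all genes. Together they took 1.01%, 0.967% and 0.999% of the counts in PLX3X_CD30 and 0.890%, 0.930% and 0.822% in PLX1X, against 1.05% to 1.20% in NT, with no overlap between the groups. Counts from unspliced or nuclear RNA were not measured, and the part of RNA quality was not tested. Mitochondrial transcripts took 0.493% to 0.529% in PLX3X_CD30 and 0.483% to 0.522% in PLX1X.

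Meg3, an imprinted long non-coding RNA of neurons, stood at 1195, 1068 and 1053 CPM in PLX3X_CD30 and 851, 847 and 598 CPM in PLX1X (log2 fold change 0.53 ± 0.11, edgeR adjusted p = 0.0360). Mir124a-1hg, the host transcript of a neuronal microRNA, stood at 34.8, 35.1 and 31.6 CPM in PLX3X_CD30 and 23.1, 24.0 and 24.6 CPM in PLX1X (0.50 ± 0.08, 0.00262). Erdr1 stood at 5.27, 4.28 and 3.88 CPM in PLX3X_CD30 and 1.22, 1.20 and 0.689 CPM in PLX1X (2.09 ± 0.32, 0.00310). All 3 were apart, and at 91.0%, 92.7% and 101% of NT in PLX3X_CD30 against 63.0%, 65.5% and 23.5% in PLX1X. The call of Meg3 was lost when the 6 libraries were fitted alone (0.207) and without any PLX3X_CD30 library (0.0722 to 0.155), while those of the other 2 held in every alternative.

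The 28 lower genes were all protein-coding, 4 of them on a list. The list of circadian clock genes held 3 of these and 1 higher gene among 16 (median log2 fold change -0.12). Ciart, a repressor of the clock, stood at 27.7, 26.4 and 17.3 CPM in PLX3X_CD30 and 34.8, 43.9 and 40.1 CPM in PLX1X, and at 12.6, 12.4 and 11.0 CPM in NT (-0.73 ± 0.14, edgeR adjusted p = 0.0143). Nr1d2, which encodes the repressor Rev-erb beta, averaged 113 ± 11.6 CPM in PLX3X_CD30 and 142 ± 0.552 CPM in PLX1X, and 85.3 ± 4.80 CPM in NT (SD, n = 3 each; log2 fold change -0.33 ± 0.07, edgeR adjusted p = 0.0129). In both, PLX3X_CD30 lay between PLX1X and NT with no overlap of any group. Tef, an output factor of the clock, stood at 450.0, 467 and 430.0 CPM in PLX3X_CD30 and 521, 512 and 547 CPM in PLX1X (-0.23 ± 0.06, 0.0467).

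Arntl, the activator Bmal1 whose mRNA cycles opposite to its target repressors, was the higher one, at 54.4, 58.2 and 61.2 CPM in PLX3X_CD30 and 38.1, 38.5 and 49.5 CPM in PLX1X (log2 fold change 0.46 ± 0.09, edgeR adjusted p = 0.0174), with NT at 52.3, 55.9 and 54.1 CPM. None of these 4 calls held with each library left out, and 1 to 3 of the 16 genes passed in those fits, against 8 without a filter on low counts. Ciart was lost without PLX1X replicate 2 (0.0599) and when the 6 libraries were fitted alone (0.172), Nr1d2 without PLX1X replicate 1 (0.0570) or PLX3X_CD30 replicate 3 (0.0861), Arntl without PLX1X replicate 1 or 2 or PLX3X_CD30 replicate 2 or 3 (0.0644 to 0.132) and with the offset for length and GC content (0.0517), and Tef without any of the 6 (0.0635 to 0.247). The labels give no time of day at which tissue was taken, and its part was not tested.

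**Figure D4:**
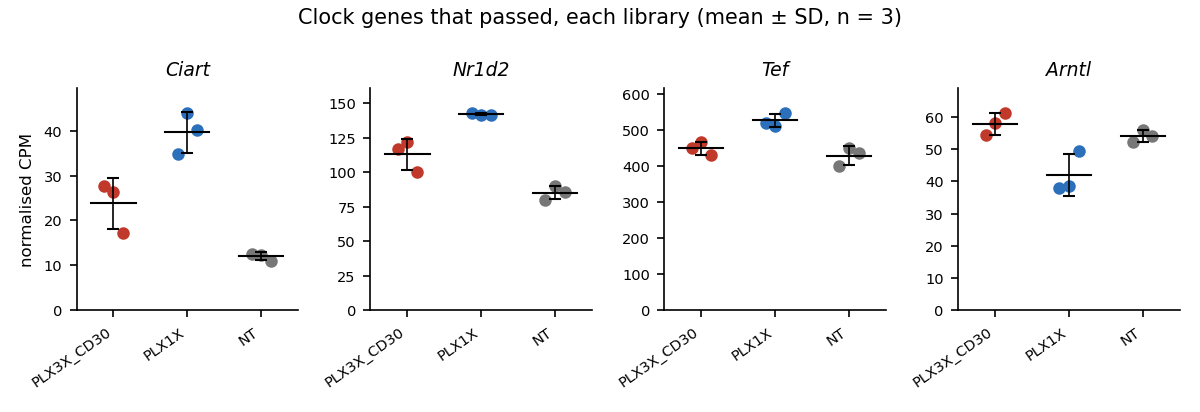
Each panel shows 1 circadian clock gene with its normalised CPM in every library on an axis that starts at zero, PLX3X_CD30 in red, PLX1X in blue and NT in grey, with the mean and SD of 3 in black. Ciart, Nr1d2 and Tef are lower in PLX3X_CD30 than in PLX1X and Arntl is higher, and in Ciart and Nr1d2 the PLX3X_CD30 libraries lie between the other groups.

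The largest fall was that of P2ry1, an ADP receptor of neurons and astrocytes. It stood at 3.63, 3.92 and 2.59 CPM in PLX3X_CD30 and 6.78, 5.70 and 5.47 CPM in PLX1X, and at 4.91, 5.23 and 5.86 CPM in NT (log2 fold change -0.83 ± 0.18, edgeR adjusted p = 0.0212). The groups were apart, and the call was lost without PLX1X replicate 1 (0.144) or PLX3X_CD30 replicate 1 or 3 (0.0731 and 0.149). Mthfd1l, a mitochondrial enzyme of folate metabolism, stood at 18.3, 17.0 and 12.8 CPM in PLX3X_CD30 and 22.7, 23.5 and 26.3 CPM in PLX1X (-0.59 ± 0.12, 0.0188), and was lost without PLX1X replicate 3 (0.0933) or PLX3X_CD30 replicate 3 (0.122). Slc6a15, a transporter of neutral amino acids in neurons, stood at 68.7, 67.2 and 63.3 CPM in PLX3X_CD30 and 80.7, 81.3 and 81.9 CPM in PLX1X (-0.29 ± 0.06, 0.0119), and was lost without PLX3X_CD30 replicate 3 (0.0887).

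The remaining list member was Tsc22d3, which glucocorticoids induce, at 94.1, 92.5 and 101 CPM in PLX3X_CD30 and 113, 109.7 and 118 CPM in PLX1X, against 88.0, 80.7 and 76.5 CPM in NT (log2 fold change -0.24 ± 0.06, edgeR adjusted p = 0.0433). It was the single call among 10 glucocorticoid response genes (median -0.02), where 2 were called with the 6 libraries fitted alone and 4 without a filter on low counts, and was lost with any of the 6 libraries left out (0.0591 to 0.183). Grb10, an adaptor that restrains insulin signalling, stood at 42.8, 41.8 and 40.5 CPM in PLX3X_CD30 and 59.6, 55.0 and 51.4 CPM in PLX1X (-0.41 ± 0.08, 0.0153), a call lost without PLX1X replicate 1 (0.115) or any PLX3X_CD30 library (0.0568 to 0.0987). Hif1a, the oxygen-regulated transcription factor, named after its values were seen, stood at 66.7, 66.5 and 65.7 CPM in PLX3X_CD30 and 77.3, 79.5 and 77.8 CPM in PLX1X (-0.24 ± 0.05, 0.0198), lost with any of the 6 left out (0.0524 to 0.0996). In all of them the 3 libraries of PLX3X_CD30 lay below those of PLX1X, as in all 28 lower genes, which adds nothing to their calls. Over all genes tested, the PLX3X_CD30 libraries lay below in 11.3% and above in 12.1%.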

How the data were processed

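Bulk RNA of frozen mouse forebrain was sequenced after SMARTer Ultra Low amplification as paired reads of 150 bases, per the labels' protocols. The authors deposited raw counts per gene and the same counts as CPM; the deposited CPM equalled count over library total to within 5.0e-07. Build mm10, DRAGEN and DESeq2 were used per the submitters' processing notes, with their roles, versions, annotation and counting of strands not given in the sources used here. Of 55774 lines, 287 repeated a gene and were removed, which left 55487 genes. Positions came from GENCODE mouse release 21, which held 55227 of them. In the 6 libraries 72.3% to 74.6% of counts from 1 to 4 were even, as when both reads of a pair are counted, so tests rest on the spread between libraries. Floors of 3 counts per library cover counting error only. Because the kit leaves strand unmarked, overlapping or antisense genes can share reads. Values of near-identical copies (Lyz1 and Lyz2, the H2 genes) are uncertain.

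Libraries were grouped by library name. Counts of all 15 were fitted with edgeR 4.0.16 in R 4.3.3 (TMM, filterByExpr by group, 21780 genes, a mean per group, robust quasi-likelihood F-tests, two-sided, Benjamini-Hochberg over all genes, threshold 0.05; biological coefficient of variation 12.1%). Standard errors were derived from the log2 fold change and its F statistic. The comparisons with NT share these libraries and are given as values only. No pair of libraries in a group agreed within sampling noise. The procedure was tested on simulated counts.

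The 49 lists (576 genes) were described by counts and medians, with no list test. The named genes were the 15 largest rises and falls among called genes whose log2 CPM averaged 0 or more, the 5 smallest adjusted p-values each way, up to 4 members of each list and fixed genes; genes named beyond this were chosen after their values were seen, and not every named gene is described; some members are not reported here. The members and lists were chosen with earlier results of these data known. Promoters came from the RefSeq table, 1 window of 300 bases per gene, matched by symbol. Alternatives were DESeq2 1.42.0, limma 3.58.1 voom with a weight per group, RLE factors, no filter, a filter of CPM 1 in 3 libraries, the 6 libraries alone, a loess offset for length and GC content, the replicate number as a block, and leaving out each library.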

Additional observations from a re-analysis of the deposited data

How the results depend on the processing

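The count of 263 called genes (235 higher, 28 lower) moved to 553 (380, 173) with DESeq2, 707 (517, 190) with voom and a weight per group, 814 (539, 275) with the 6 libraries fitted alone and 696 (492, 204) without a filter on low counts. The number lower was 152 with an offset for length and GC content, which shifted the median of all genes to -0.052, and its share of the calls was larger in these 5 fits. With 1 library left out, 125 to 188 genes were called, 119 to 178 of them higher and 2 to 31 lower. Genes higher by at least 2-fold numbered 226 without the filter and 83 to 131 with 1 library left out, against 134. Called members of the shared macrophage list ran from 12 to 20 and their median from 2.30 to 3.01 over the fits with 1 library left out. Genes near zero that were not called changed sign. Mbp (0.02) had a log2 fold change of -0.02 with the offset and -0.01 to 0.03 with 1 library left out. In those fits Sparc (-0.10) ran from -0.31 to 0.04 and Sall3 (0.13) from -0.05 to 0.33. Of all 235 higher genes, 81 were called in every alternative, and of the 28 lower genes 0 were. Of 109 called genes followed, 53 were called in all 14 alternatives and 0 changed direction. These 109 were named for their fold, adjusted p or list, or after their values were seen. The replicate numbers did not pair the libraries: deviations of same-numbered libraries correlated by 0.007, -0.007 and -0.003. With the replicate block 243 genes were called, 226 higher and 17 lower. With 3 libraries a group, and with few counts in PLX1X for many myeloid genes, the size of a rise is uncertain for genes near the floor, and the smallest p that an exact test of 3 against 3 can give is 0.1. The cause of these differences between fits was not tested.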
